A study of Homo sapiens with 24 samples.

Results

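The genes described here encode the 2 coats that carry proteins between the endoplasmic reticulum (ER) and the Golgi, COPII and COPI, together with the small GTPases and regulators of these coats, the KDEL receptors, the p24 proteins, the lectin-like and other cargo receptors, and the tethers and SNARE proteins of the same step. They form a list of 41 gene names, drawn up with earlier results of these data known, and no measured value enters the rule. A row was found for 40 of the 41 among the 18915 genes of the count table, and all 40 passed the expression filter that left 12685 genes for testing. *SEC22B*, a SNARE of the same route, was not analysed here. RNA was sequenced from HepG2, a human liver cancer cell line, after 10 h in fresh medium with vehicle or compounds, from 4 biological replicates in each of 6 groups. The groups received DMSO (the vehicle), ISRIB at 50 nM, nelfinavir at 20 µM, bortezomib at 50 nM, bortezomib with nelfinavir, or bortezomib with ISRIB, at the same doses when combined. Bortezomib (Btz in the plots) blocks the proteasome. Nelfinavir (Nelf) is an HIV protease inhibitor that also turns on the ATF4 arm of the stress response, and ISRIB restores the activity of the translation factor eIF2B when eIF2α is phosphorylated, which lowers ATF4 output. All groups share the cell line, the medium and the treatment time, and a single cell line at a single dose and time limits what the groups can stand for.

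Secretory proteins leave the ER in vesicles coated by COPII. The GTPase SAR1, loaded with GTP by *PREB* (the mammalian SEC12) at exit sites organised by *SEC16A*, recruits SEC23 with SEC24, whose SEC24 subunit selects cargo, and then the outer cage of *SEC13* and SEC31. COPI coats, built from several subunits and recruited by the GTPase *ARF1*, carry escaped ER residents and recycling receptors back from the Golgi. Many genes of both coats are known targets of the unfolded protein response, in which ATF6 and the spliced form of XBP1 act on promoter elements that contain the letters TGACGTG.

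The libraries were 3′ tag libraries, in which reads come from the end of each transcript, and levels are given in CPM, which relates each count to the total of its library after scaling by edgeR's TMM factors. Total counts ran from 5154533 to 6943164 per library. Genes of the mitochondrial genome took 18.02% to 23.23% of the counts in the 12 libraries without bortezomib, 32.77% to 35.49% in bortezomib alone, 24.94% to 29.64% in bortezomib with nelfinavir and 32.61% to 40.18% in bortezomib with ISRIB. CPM is a share of the measured RNA, so that less RNA per cell and fewer cells cannot be told apart, and a change in CPM is not a change in molecules per cell. The hepatocyte genes *ALB*, *AFP*, *APOA1*, *APOB*, *TTR*, *SERPINA1*, *FGB* and *HNF4A* were counted in every library, and no row was found for the leukocyte, fibroblast and endothelial markers *PTPRC*, *COL1A2* and *PECAM1*.

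Promoter windows of RefSeq (GRCh38.p14, from 250 bases before to 50 bases after the start site) were found for 37 of the 40 genes, and none for *SEC24D*, *KDELR2* or *TMED9*. The unfolded protein response element core, TGACGTG or its reverse complement CACGTCA, stood in 10 of the 37 windows (27%), against 546 of 27305 windows of all genes (2.00%) and 233 of 8946 windows of genes tested here (2.60%). The 10 genes were *SEC23A*, *SEC24A*, *SEC13* and *SEC16A* of the COPII group, *COPA*, *COPB1*, *COPB2*, *COPE* and *ARF1* of the COPI group, and the receptor gene *KDELR3*. The longer ER stress elements ERSE (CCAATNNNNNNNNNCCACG) and ERSE-II (ATTGG, then 1 base of any kind, then CCACG) were in none of the 37, and were rare in general, at 0.0806% and 0.0549% of all windows and 0.134% and 0.123% of those of genes tested. The ATF4 composite letters TGATGNAA were in 1 window, that of *MCFD2*, against 3.67% of all windows and 1.63% of those of genes tested. Both strands were searched, and no motif overlapped another in these windows. The windows of 4 genes are printed, 5′ to 3′ on the strand of the gene. *SEC24A* and *COPA* were among the strongest rises with bortezomib, *COPB2* holds the letters at 2 places, and *KDELR3* had a lower level in bortezomib. *COPG1*, *GOLGB1* and *LMAN1*, also higher in bortezomib, had no match, and *SEC23A* and *SEC13* had the core without a call there. Whether the letters go with a change in level was not tested. Capitals mark the matched letters.
SEC24A (chr5:134648535-134648834, plus strand): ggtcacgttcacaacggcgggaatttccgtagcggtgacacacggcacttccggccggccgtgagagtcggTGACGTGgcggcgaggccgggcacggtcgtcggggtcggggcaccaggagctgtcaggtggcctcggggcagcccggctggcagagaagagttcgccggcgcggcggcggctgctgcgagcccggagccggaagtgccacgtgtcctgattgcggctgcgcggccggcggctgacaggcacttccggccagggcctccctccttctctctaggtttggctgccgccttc
COPA (chr1:160343201-160343500, minus strand): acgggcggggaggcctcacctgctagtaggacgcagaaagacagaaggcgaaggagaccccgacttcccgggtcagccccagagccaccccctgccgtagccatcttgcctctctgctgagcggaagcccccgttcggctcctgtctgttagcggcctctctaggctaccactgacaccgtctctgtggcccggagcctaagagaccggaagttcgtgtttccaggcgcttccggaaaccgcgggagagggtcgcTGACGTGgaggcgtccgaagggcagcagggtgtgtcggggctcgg
COPB2 (chr3:139389631-139389930, minus strand): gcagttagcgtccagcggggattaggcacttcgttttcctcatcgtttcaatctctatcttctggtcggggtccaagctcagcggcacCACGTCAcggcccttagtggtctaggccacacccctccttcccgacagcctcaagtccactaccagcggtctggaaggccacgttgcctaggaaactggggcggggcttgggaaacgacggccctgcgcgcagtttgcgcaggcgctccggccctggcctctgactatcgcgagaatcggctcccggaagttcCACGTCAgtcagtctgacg
KDELR3 (chr22:38467846-38468145, plus strand): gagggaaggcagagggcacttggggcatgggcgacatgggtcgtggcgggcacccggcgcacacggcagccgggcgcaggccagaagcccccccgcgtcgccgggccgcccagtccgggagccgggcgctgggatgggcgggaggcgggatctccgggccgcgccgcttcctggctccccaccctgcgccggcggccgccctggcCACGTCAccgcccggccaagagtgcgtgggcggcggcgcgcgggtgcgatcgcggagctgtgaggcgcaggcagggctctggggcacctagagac

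A match is a description of the letters and says nothing of binding. Counted from the start site, the first matched base lay at -179 in *SEC24A*, -45 in *KDELR3* and 6 in *COPA*, and at -162 and 32 in *COPB2*.

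**Figure D1:**
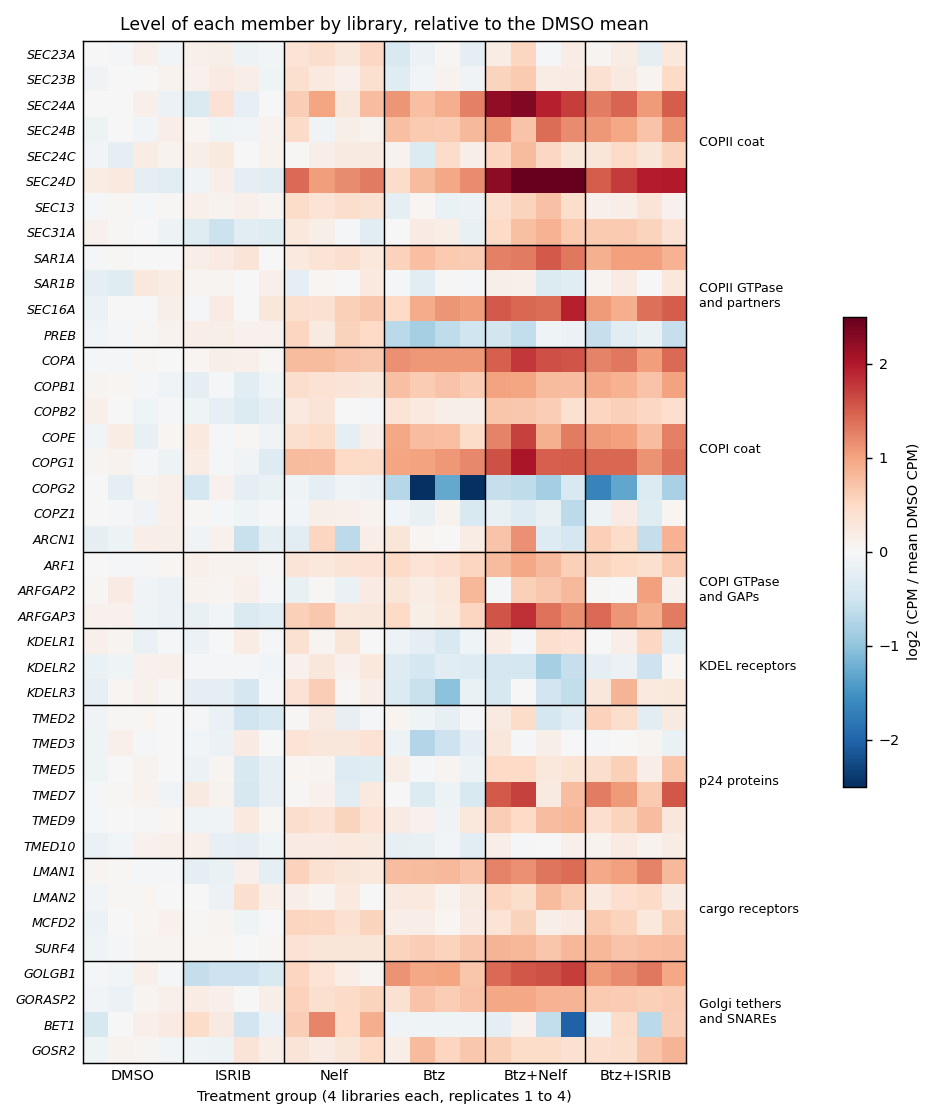
Level of the 40 genes (rows, by role) in each of the 24 libraries (columns, 4 per group), as log2 of CPM over the gene's mean in DMSO, where red is higher and blue lower and values past 2.5 in either direction take the end colour. The darkest red lies in *SEC24D* and *SEC24A* in bortezomib with nelfinavir, and the darkest blue in *COPG2* in bortezomib.

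Across the 6 groups, the mean level was highest in bortezomib with nelfinavir for 25 of the 40 genes, in nelfinavir for 7, in bortezomib with ISRIB for 7 and in DMSO for 1. The same count over all genes tested was not made, so these counts describe the members alone. Differences were tested in 1 edgeR quasi-likelihood model over all 24 libraries and 12685 genes, and a gene was called at a Benjamini-Hochberg adjusted p under 0.05. In bortezomib against DMSO 17 of 40 genes were called higher and 5 lower, where 27.6% of all genes tested were called higher and 25.8% lower. In nelfinavir against DMSO 20 were higher and 0 lower (10.4% and 8.84% of all genes). Adding nelfinavir to bortezomib gave 29 higher and 0 lower against bortezomib alone (15.6% and 13.4%), and adding ISRIB gave 14 higher and 0 lower (6.91% and 5.34%). The members called were 42.5% higher and 12.5% lower with bortezomib, 50% higher with nelfinavir, 72.5% higher when nelfinavir joined bortezomib and 35% higher when ISRIB did. ISRIB alone gave no call among the members or among all genes (0% and 0%). Genes called lower were thus few among the members in each comparison with a compound added, while about as many genes were called lower as higher among all genes tested. The comparisons of the co-treatments with bortezomib share the bortezomib libraries, and those of single compounds share the DMSO libraries.

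**Figure D2:**
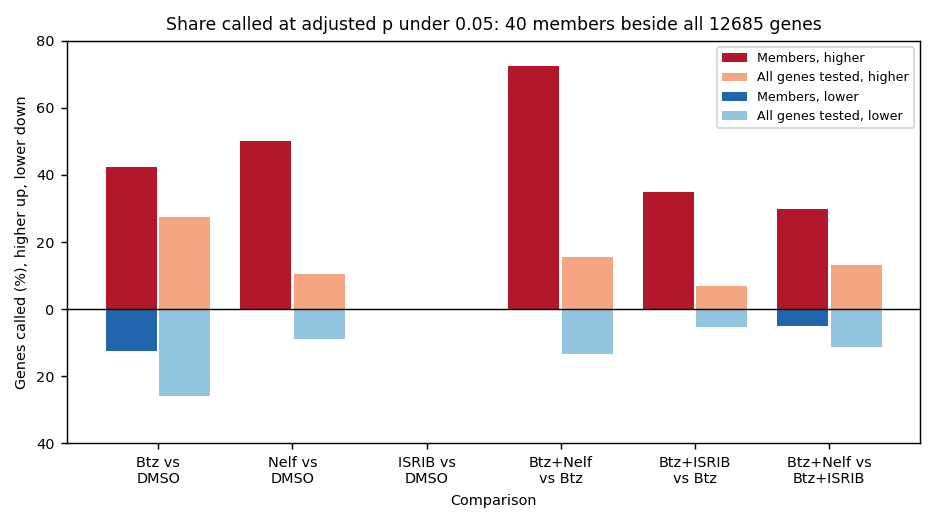
Share of the 40 members (dark bars) and of all 12685 genes tested (light bars) called at an edgeR adjusted p under 0.05, as a percent, higher above the zero line and lower below it, in 6 comparisons. The tallest bar is nelfinavir added to bortezomib, at 72.5% of members against 15.6% of all genes, and ISRIB against DMSO has no bar.

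Bortezomib alone raised part of both coats and lowered some of their partners. In the COPI coat *COPA*, *COPG1*, *COPE*, *COPB1* and *COPB2* were called higher, *COPG2* was called lower, and *COPZ1* and *ARCN1* did not pass. *COPA*, the α subunit, was at 58.5, 58.8, 61.3 and 60.5 CPM in the DMSO libraries and at 132, 126, 127 and 127 CPM in bortezomib. The 2 groups were far apart, with replicates that differed by a few CPM, and the log2 fold change was 1.10 ± 0.08 (SE, edgeR adjusted p = 6.60e-13). *COPG1*, one of the pair of γ subunits, read 31.8, 32.2, 29.4 and 27.8 CPM in DMSO and 59.9, 60.5, 64.4 and 69.6 CPM in bortezomib, again without overlap (1.07 ± 0.12 log2, edgeR adjusted p = 7.86e-09). *COPG2*, the other γ subunit, went the opposite way, from 5.58, 4.82, 6.02 and 6.13 CPM to 3.42, 0.582, 2.32 and 0.648 CPM. Its log2 fold change of -1.69 ± 0.36 (edgeR adjusted p = 0.000166) rests on 3 to 16 counts per bortezomib library. Its 3′ end shares 228 bases with *MEST* on the opposite strand. Whether the authors counted by strand is not stated in the labels or methods. Reads of *COPG2* and *MEST* in the shared bases may therefore be mixed. *COPB2* was called at a log2 fold change of only 0.23 ± 0.09 (edgeR adjusted p = 0.0388), and the call was lost without any of 7 of the 8 libraries, under other scalings, and with another library as the TMM reference and none left out (adjusted p 0.107). It too overlaps an opposite-strand gene at its 3′ end, *MRPS22*, over 500 bases.

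In the COPII group, bortezomib raised *SEC24A*, *SEC24D* and *SEC24B*, the cargo-selecting subunits, while *SEC24C*, *SEC23A*, *SEC23B*, *SEC13* and *SEC31A* did not pass. *SEC24A* was at 15.1, 15, 16.5 and 13.6 CPM in DMSO and at 32.5, 25.2, 28.1 and 35.9 CPM in bortezomib, without overlap (1.01 ± 0.17 log2, edgeR adjusted p = 4.79e-06). *SEC16A*, the exit site scaffold, and *SAR1A* rose as well, by 0.91 and 0.66 on the log2 scale (edgeR adjusted p = 1.20e-06 and 9.70e-08). *PREB*, the exchange factor that loads SAR1, was lower: 96.4, 96.8, 103 and 107 CPM in DMSO became 63.5, 56.8, 65.1 and 70.9 CPM in bortezomib (-0.66 ± 0.11 log2, edgeR adjusted p = 5.93e-06). No bortezomib library reached the lowest DMSO library of *PREB*. The 3′ end of *PREB* shares 57 bases with *ABHD1* on the opposite strand. Of the SAR1 pair, *SAR1B* stayed at 37.8 ± 7.43 CPM in DMSO and 35.9 ± 3.20 CPM in bortezomib (SD, n = 4) and did not pass.

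Among cargo receptors *LMAN1* (ERGIC-53, the lectin that carries coagulation factors V and VIII with *MCFD2*) and *SURF4* were higher in bortezomib, by 0.77 ± 0.09 and 0.60 ± 0.07 on the log2 scale (edgeR adjusted p = 9.84e-09 and 4.93e-09), whereas *LMAN2* and *MCFD2* did not pass. The KDEL receptors, which return ER residents from the Golgi, were not higher: *KDELR2* and *KDELR3* were called lower and *KDELR1* did not pass (-0.20 log2). *KDELR2* read 234, 245, 283 and 288 CPM in DMSO and 209, 193, 215 and 209 CPM in bortezomib (-0.35 ± 0.10 log2, edgeR adjusted p = 0.00321). Of the 6 p24 members, whose proteins travel in both coats and help load cargo, *TMED3* was called lower and the other 5 did not pass. *TMED3* was at 73.9, 87.1, 78.8 and 79.9 CPM in DMSO and 72.9, 47.9, 55.6 and 67.9 CPM in bortezomib (-0.39 ± 0.11 log2, edgeR adjusted p = 0.00302). The Golgi group held 3 rises: *GOLGB1* (giantin, a tether of COPI vesicles) by 0.95 ± 0.10, *GORASP2* (a Golgi stacking protein) by 0.61 ± 0.08 and the SNARE gene *GOSR2* by 0.56 ± 0.13 on the log2 scale. *GOSR2* has a same-strand neighbour model that is identical over 207 bases of its 3′ end, so that its counts are uncertain. *ARF1* and *ARFGAP3* were called higher, by 0.46 and 0.36, and both changed sign, as *COPB2* did, with library totals alone (-0.04, -0.14 and -0.27). The call of *ARFGAP3* was also lost without any of 6 of the 8 libraries and with another TMM reference (adjusted p 0.0554), and that of *KDELR3* without bortezomib replicate 3 (adjusted p 0.0567). The scaling bears on this comparison more than on any other, beside the rise in mitochondrial share: with library totals alone the median of all genes moved by -0.497 on the log2 scale, and 6 members were called higher and 21 lower. With totals of nuclear genes it moved by -0.250, with 14 higher and 12 lower. Called in the same direction under every alternative were *COPA*, *COPG1*, *SEC24A*, *SEC16A*, *LMAN1* and *GOLGB1* (higher) and *PREB*, *KDELR2*, *TMED3* and *COPG2* (lower).

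Nelfinavir alone raised genes of every role except the KDEL receptors. The counts were 4 of 8 COPII coat genes, 3 of 4 COPII regulators, 3 of 8 COPI coat genes, 2 of 3 of the *ARF1* group, 2 of 6 p24 genes, 3 of 4 cargo receptors and 3 of 4 Golgi genes, and the median log2 fold change of the 40 was 0.31, against 0.01 for all genes tested. The change was widest in *SEC24D*, which went from 18.6, 19.4, 14 and 13.4 CPM in DMSO to 43.6, 33.6, 37.2 and 40.2 CPM in nelfinavir (1.24 ± 0.15 log2, edgeR adjusted p = 2.05e-07). That is 2.363-fold, and the only member past 2-fold in this comparison. *BET1*, a SNARE of ER-Golgi vesicles, was at 6.39, 8.33, 9.24 and 9.68 CPM in DMSO and 12.8, 19.6, 11.9 and 15.7 CPM in nelfinavir (0.84 ± 0.26 log2, edgeR adjusted p = 0.021). *BET1* had 55 to 152 counts in these 8 libraries, and without DMSO replicate 1 or 2 or nelfinavir replicate 2 or 4 its adjusted p lay between 0.0522 and 0.0968. *COPA* was at 104, 104, 98.5 and 95.4 CPM in nelfinavir, above all DMSO libraries and below all bortezomib libraries (0.75 ± 0.08 log2 against DMSO, edgeR adjusted p = 2.03e-08). *MCFD2*, the partner of *LMAN1*, rose by 0.50 ± 0.09 (edgeR adjusted p = 7.73e-05); its 3′ end overlaps *TTC7A* on the opposite strand. *PREB*, lower in bortezomib, was higher here at 146, 117, 150 and 142 CPM (0.46 ± 0.10 log2, edgeR adjusted p = 0.00142), and *TMED3* was higher by 0.32 ± 0.11 (edgeR adjusted p = 0.0305). These 2 genes were the only members called in opposite directions in the 2 single treatments, and 13 members were called higher in both. The 2 treatments share the DMSO libraries, and the matching overlap among all genes was not counted. The call of *TMED3* with nelfinavir was lost without any of 6 of the 8 libraries, with adjusted p up to 0.105. Under every alternative 15 of the 20 calls held, and *BET1*, *ARFGAP3*, *GOLGB1*, *SAR1A* and *TMED3* were the 5 that did not.

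ISRIB alone moved no member past the threshold. The median log2 fold change of the 40 was 0.00, 4 members and 703 of all genes had an unadjusted p under 0.05, and DESeq2 called 1 member and 21 genes. The smallest p among members was that of *GOLGB1*, at 218, 210, 240 and 217 CPM in DMSO and 146, 155, 154 and 171 CPM in ISRIB. The libraries of the 2 groups did not overlap, and the log2 fold change was -0.50 ± 0.10 (edgeR adjusted p = 0.169). DESeq2 called it at an adjusted p of 0.00449, and edgeR did so without the filter (0.000483) or with only these 2 groups in the fit (0.00343). With only these 2 groups in the fit 2 members were called lower, *GOLGB1* and *SEC31A*.

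Adding nelfinavir to bortezomib raised all 8 COPII coat genes against bortezomib alone, the single role in which each member was called in any comparison. The regulators *SAR1A*, *SEC16A* and *PREB*, 5 of 8 COPI coat genes, 5 of 6 p24 genes, 3 of 4 cargo receptors, 2 of 3 of the *ARF1* group, *KDELR1*, *GOLGB1* and *GORASP2* made up the rest of the 29. Of these 29, 15 were also called higher in bortezomib against DMSO, 11 were not called there, and *COPG2*, *PREB* and *TMED3* were lower there. The matching split among all genes was not counted. *SEC24D* rose furthest, from 22.5, 28.3, 32.1 and 37 CPM in bortezomib to 77.4, 97.6, 98 and 118 CPM in the combination. The lowest library of the combination was above the highest of bortezomib by more than a factor of 2, and the fold change was 3.265 (1.71 ± 0.15 log2, edgeR adjusted p = 2.47e-10). *SEC24A*, another cargo-selecting subunit, was at 70.2, 75.2, 58.2 and 49.9 CPM (1.06 ± 0.16 log2 against bortezomib, edgeR adjusted p = 4.99e-06). The inner coat genes *SEC23A*, *SEC23B*, *SEC24B* and *SEC24C* moved by 0.41 to 0.50 on the log2 scale, and the cage genes *SEC13* and *SEC31A* by 0.66 and 0.64. *SEC24B* passed narrowly (edgeR adjusted p = 0.0485, and 0.0515 with a replicate block). With totals of nuclear genes *SEC23A*, *SEC24B* and *SEC24C* were not called (edgeR adjusted p = 0.13, 0.255 and 0.181).

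*ARFGAP3*, a GTPase-activating protein for *ARF1*, was at 46.6, 36.7, 39.3 and 47.8 CPM in bortezomib and 99.1, 117, 84.5 and 73.9 CPM with nelfinavir added (1.14 ± 0.14 log2, edgeR adjusted p = 1.12e-07). *TMED7*, a p24 protein, was at 29.7, 23.3, 27 and 22.5 CPM in bortezomib and 84.8, 96.3, 34.6 and 50.3 CPM in the combination. All 4 libraries were above the bortezomib libraries but they spread widely, with replicates 3 and 4 nearest to them (1.37 ± 0.21 log2, edgeR adjusted p = 9.33e-06). *COPG2* was called higher at 3.8, 3.63, 3.14 and 4.32 CPM (1.10 ± 0.39 log2, edgeR adjusted p = 0.0304), with groups that overlapped and a call that was lost without bortezomib replicate 2 or 4 (adjusted p 0.101 and 0.0879) or replicate 4 of the combination (0.0601). The other 11 members did not pass. Of these, *BET1*, *KDELR2*, *COPZ1* and *GOSR2* had negative log2 values of -0.41, -0.22, -0.20 and -0.09, and *SAR1B*, *TMED2*, *ARFGAP2*, *KDELR3*, *MCFD2*, *COPB1* and *ARCN1* lay between 0.005 and 0.29. The mitochondrial share was lower in this combination than in bortezomib alone. Totals of nuclear genes moved the median of all genes by -0.170. With them 16 members were called higher and 2 lower, against 1120 and 2902 of all genes. Those 16 were also the calls held under every alternative: *COPA*, *COPG1*, *SEC13*, *SEC16A*, *SEC23B*, *SEC24A*, *SEC24D*, *SEC31A*, *SAR1A*, *ARFGAP3*, *TMED3*, *TMED7*, *TMED9*, *LMAN1*, *LMAN2* and *GOLGB1*.

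**Figure D3:**
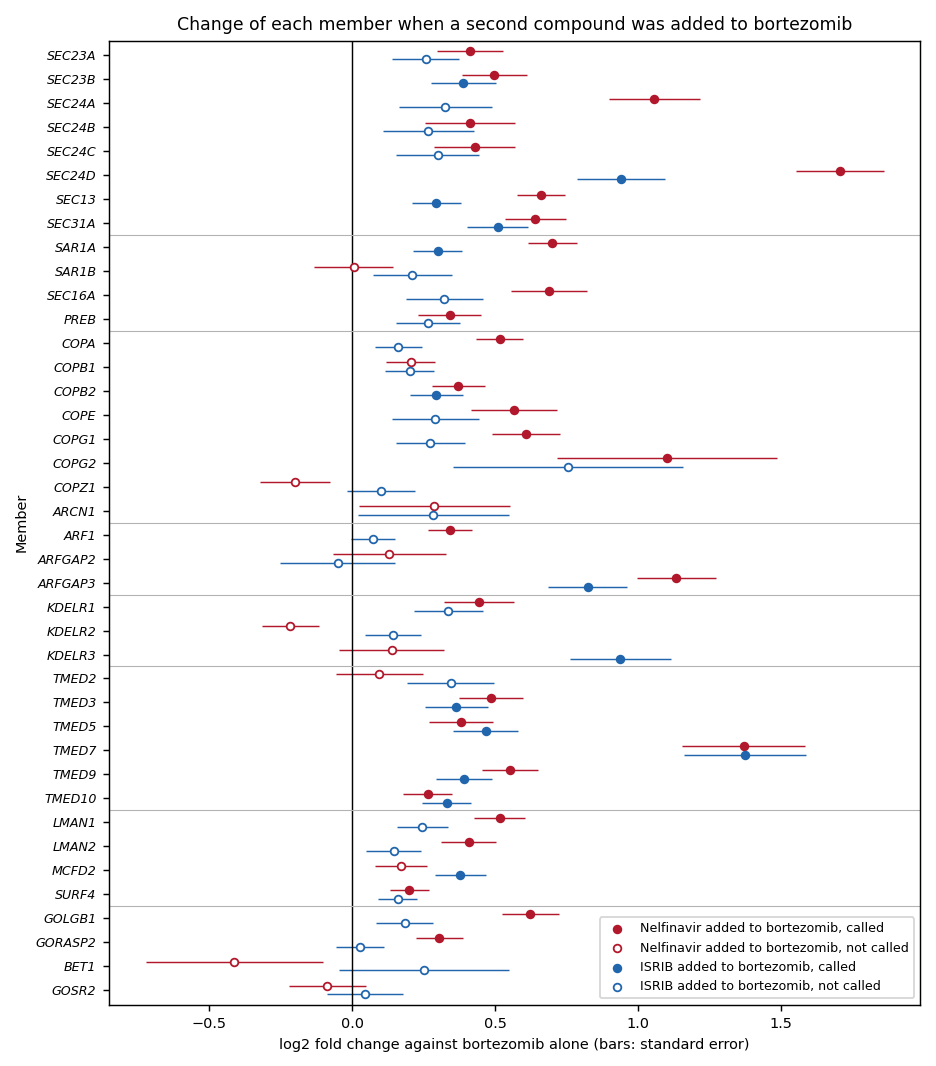
Log2 fold change of each of the 40 members against bortezomib alone when nelfinavir (red) or ISRIB (blue) was added, with standard errors, filled where called at an edgeR adjusted p under 0.05 and grouped by role. Most points lie right of zero, *SEC24D* with nelfinavir lies furthest right at 1.71, and the points of *TMED7* lie at 1.37 and 1.38.

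With ISRIB added to bortezomib 39 of the 40 estimates were positive and 14 passed. The median log2 fold change was 0.293 for the members and 0.007 for all genes tested. The p24 members led, with *TMED3*, *TMED5*, *TMED7*, *TMED9* and *TMED10* called higher and *TMED2* at 0.34 ± 0.15 not passing. Outside the 40 members, the mean of *TMED1* went from 11.69 to 10.74 CPM and that of *TMED4* from 68.13 to 73.75 CPM. Likewise *TMED6* went from 2.194 to 1.224 CPM and *TMED8* from 30.15 to 25.57 CPM, so the rise was not shared by all p24 genes. *TMED7* rose to 71.9, 61.4, 46.7 and 86.4 CPM, a fold change of 2.593 (1.38 ± 0.21 log2, edgeR adjusted p = 2.69e-05). *SEC24D* was at 46.5, 54.7, 64 and 64.9 CPM, above all 4 bortezomib libraries and below all 4 of bortezomib with nelfinavir (0.94 ± 0.15 log2 against bortezomib, edgeR adjusted p = 5.63e-05). *KDELR3* was at 18.6, 16.1, 11.6 and 21 CPM in bortezomib and 28.9, 42.9, 28.2 and 28.6 CPM with ISRIB added (0.94 ± 0.18 log2, edgeR adjusted p = 0.000372). Replicate 2 of *KDELR3* stood well above the other 3, which lay between 28.2 and 28.9 CPM and were all above bortezomib. *ARFGAP3* was at 88.6, 70.8, 61.1 and 81.2 CPM (0.82 ± 0.14 log2, edgeR adjusted p = 7.78e-05) and *SEC31A*, of the COPII cage, at 224, 226, 211 and 184 CPM (0.51 ± 0.11 log2, edgeR adjusted p = 0.0013). The other calls were *SEC23B*, *SEC13*, *SAR1A*, *COPB2* and *MCFD2*, at 0.29 to 0.39 on the log2 scale. Among the Golgi tethers and SNAREs 0 of 4 passed. Of the 14, *TMED5*, *TMED7*, *TMED10*, *SEC24D*, *SEC31A*, *ARFGAP3*, *KDELR3* and *MCFD2* held under every alternative, and the count fell to 9 without bortezomib replicate 3, with library totals alone or with these 2 groups alone in the fit.

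The 2 co-treatments shared 12 called members (*ARFGAP3*, *COPB2*, *SAR1A*, *SEC13*, *SEC23B*, *SEC24D*, *SEC31A*, *TMED3*, *TMED5*, *TMED7*, *TMED9* and *TMED10*), 17 were called with nelfinavir added and not with ISRIB, and *KDELR3* and *MCFD2* were called with ISRIB added and not with nelfinavir. Both were set against the same bortezomib libraries, and the matching overlap among all genes was not counted. Compared directly, 12 members were higher with nelfinavir and 2 lower (13.2% and 11.3% of all genes). *SEC24D* was higher with nelfinavir by 0.77 ± 0.15 (edgeR adjusted p = 0.000173) and *SEC24A* by 0.73 ± 0.16 (adjusted p = 0.000708), with no overlap of libraries in either. *SEC24A* with ISRIB was at 36.7, 41.3, 31.6 and 43 CPM. *GOLGB1* was at 592, 646, 671 and 732 CPM with nelfinavir and 462, 502, 554 and 430 CPM with ISRIB (0.44 ± 0.10 log2, edgeR adjusted p = 0.00114). *SAR1A* was at 162, 167, 198 and 170 CPM and 126, 139, 138 and 124 CPM in that order (0.40 ± 0.08 log2, edgeR adjusted p = 0.000613). *KDELR3* went against the coat genes, at 18, 23.8, 17.1 and 15.4 CPM with nelfinavir, below every library with ISRIB (-0.80 ± 0.18 log2, edgeR adjusted p = 0.000904). *KDELR2* was called lower with nelfinavir as well (-0.36 ± 0.10 log2, edgeR adjusted p = 0.00703), a call lost without replicate 3 of bortezomib with nelfinavir (0.0674) or replicate 4 of bortezomib with ISRIB (0.0937). No p24 member was called here, and *TMED7* differed by -0.01 ± 0.20 on the log2 scale, an interval that still holds differences of either sign. *SEC24D*, *SEC24A*, *GOLGB1*, *SAR1A* and *KDELR3* were called under every alternative. The mitochondrial shares of the 2 co-treatments did not overlap, and totals of nuclear genes moved the median of all genes by -0.162. With them 4 members were called higher and 6 lower, against 955 and 2580 of all genes.

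Whether a compound acted differently with and without bortezomib was tested as an interaction in the same model. For nelfinavir 5 members had a more positive effect in the presence of bortezomib and 2 a more negative one, against 9.74% and 10.0% of all genes. For ISRIB the counts were 9 and 0, against 2.93% and 1.89%. *TMED7*, *ARFGAP3*, *SEC31A* and *TMED5* were more positive for both compounds. *TMED7* was at 28.6, 29.9, 31.5 and 27.9 CPM in DMSO, 29.9, 31.9, 24.7 and 34.7 CPM in nelfinavir and 34.3, 31.4, 22.2 and 25.4 CPM in ISRIB, so that neither compound alone separated it from DMSO, and the interactions were 1.33 ± 0.30 for nelfinavir and 1.43 ± 0.30 for ISRIB on the log2 scale (edgeR adjusted p = 0.00144 and 0.00261). *SEC31A* was at 154, 146, 141 and 130 CPM in DMSO, 144, 165, 160 and 125 CPM in bortezomib and 201, 240, 261 and 224 CPM in bortezomib with nelfinavir. Its ISRIB libraries lay at 116, 98.4, 118 and 115 CPM, all below DMSO, though that difference did not pass (-0.35 ± 0.11 log2, edgeR adjusted p = 0.471). With only ISRIB and DMSO in the fit *SEC31A* was called lower (edgeR adjusted p = 0.0311). The interactions of *SEC31A* were 0.60 ± 0.15 and 0.86 ± 0.15 (edgeR adjusted p = 0.00419 and 0.000382).

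*ARFGAP3* read 35.8, 35.9, 30.8 and 30 CPM in DMSO, 50.2, 52.8, 39.7 and 40.1 CPM in nelfinavir and 29.1, 31.5, 25.8 and 27.4 CPM in ISRIB, with interactions of 0.67 ± 0.19 and 1.04 ± 0.20 (edgeR adjusted p = 0.0121 and 0.000839). *TMED5* was at 104, 90.4, 97 and 83.9 CPM in bortezomib, 130, 131, 111 and 117 CPM with nelfinavir added and 125, 139, 104 and 150 CPM with ISRIB added (0.49 ± 0.16 and 0.62 ± 0.16, edgeR adjusted p = 0.0251 and 0.0165). The nelfinavir interaction of *TMED5* was lost without DMSO replicate 3 or nelfinavir replicate 3 or 4 (adjusted p 0.0536 to 0.0662). Further calls for ISRIB were *SEC24D* (1.03 ± 0.22, edgeR adjusted p = 0.00419), *KDELR3* (1.15 ± 0.24, 0.00298), *GOLGB1* (0.69 ± 0.14, 0.00231), *COPB2* (0.52 ± 0.13, 0.015) and *TMED10* (0.43 ± 0.12, 0.0298). *GOLGB1* was at 482, 434, 440 and 359 CPM in bortezomib and did not pass with ISRIB added to it. Its log2 fold change with ISRIB alone was -0.502, also not called. *SEC24D* was at 15.4, 18.4, 14 and 13.7 CPM in ISRIB, within the range of the DMSO libraries. *COPB2* was at 95.7, 89.3, 81.9 and 88 CPM in ISRIB and 150, 157, 148 and 139 CPM in bortezomib with ISRIB, and *TMED10* at 243, 262, 242 and 260 CPM in the latter against 197, 200, 216 and 187 CPM in bortezomib. The *TMED10* call was lost when any of 9 of the 16 libraries was left out (adjusted p 0.053 to 0.0779).

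The negative interactions with nelfinavir were those of *BET1* and *KDELR2*. *BET1*, higher with nelfinavir alone, was at 7.91, 7.76, 7.82 and 7.78 CPM in bortezomib and 7.19, 9.08, 5.5 and 2.06 CPM in the combination (-1.25 ± 0.41 log2, edgeR adjusted p = 0.0269). Replicate 4 of the combination held 11 counts, and without it the interaction was -0.91 with an adjusted p of 0.0728. The call was also lost without DMSO replicate 1 (0.0607) or nelfinavir replicate 2 (0.0662). *KDELR2* was at 281, 318, 283 and 314 CPM in nelfinavir and 195, 193, 147 and 177 CPM in the combination (-0.40 ± 0.14 log2, edgeR adjusted p = 0.0367), and the call was lost without any of 10 of the 16 libraries, or with another TMM reference and none left out (adjusted p 0.0565). *SAR1A* had a positive interaction with nelfinavir (0.39 ± 0.12, edgeR adjusted p = 0.0193) from 66.9, 69.1, 67.5 and 68.5 CPM in DMSO, 80.2, 85.7, 89.9 and 81.1 CPM in nelfinavir and 102, 115, 107 and 105 CPM in bortezomib. *TMED7*, *SEC31A* and *ARFGAP3* were the nelfinavir interactions held under every alternative, and 8 of the 9 for ISRIB were held, *TMED10* being the exception. With totals of nuclear genes the median of all nelfinavir interactions moved by -0.128. There 3 members were more positive and 6 more negative, against 851 and 1833 of all genes.

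**Figure D4:**
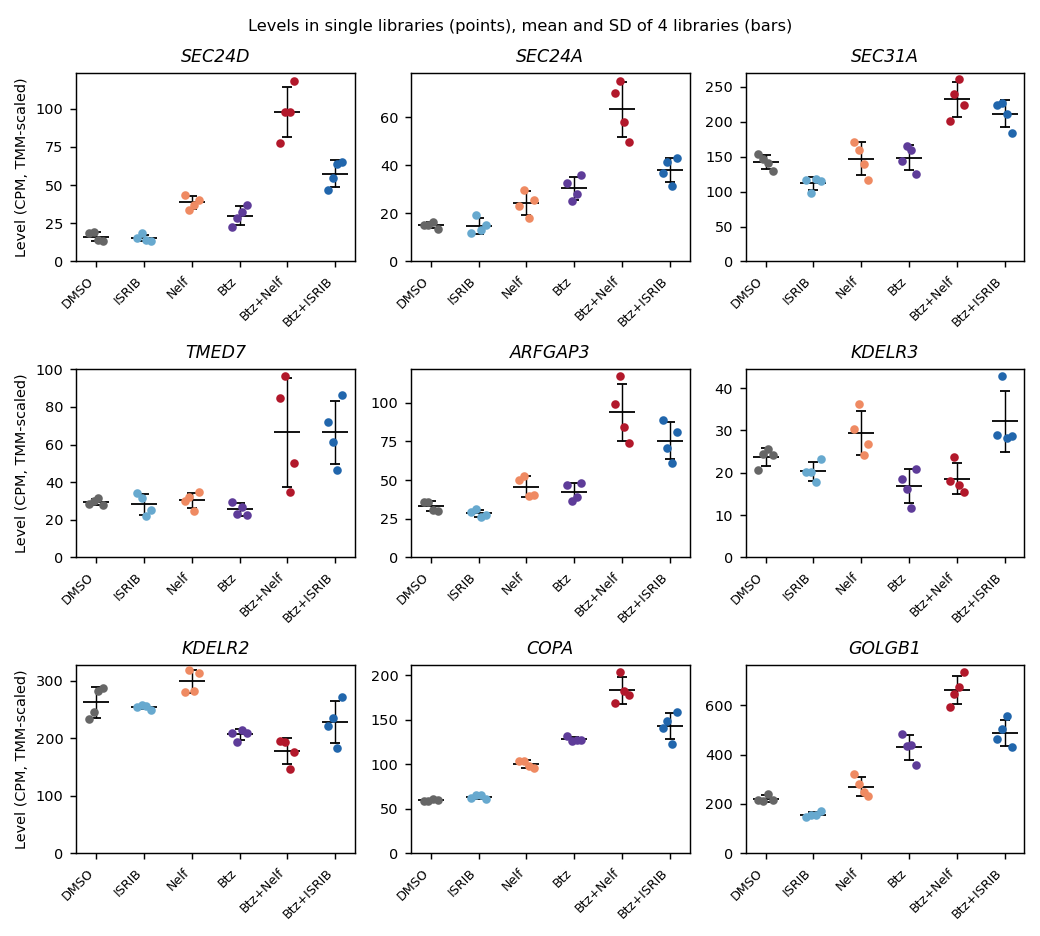
Level in CPM (TMM-scaled, axes from 0) of 9 members in every library, with the mean and SD of 4 libraries per group. *SEC24D* and *SEC24A* are highest in bortezomib with nelfinavir, *TMED7*, *ARFGAP3* and *SEC31A* are high in both co-treatments, and *KDELR3* is high in bortezomib with ISRIB and low in bortezomib with and without nelfinavir.

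Paralogs of one subunit were called in different numbers of comparisons, and the differences between paralogs were not tested. *SEC24D* and *SEC24A* changed in 3 or more comparisons, *SEC24C* only when nelfinavir was added to bortezomib. *SAR1A* was called in 5 comparisons between groups and *SAR1B* in 0 of 8 tests, although *SAR1B* (chr5:133936839-133984961, minus strand, GRCh37) and *SEC24A* (chr5:133984475-134063599, plus strand) overlap at their 5′ ends. *SAR1B* ranged from 35.9 ± 3.20 CPM in bortezomib to 41.6 ± 3.50 CPM in bortezomib with ISRIB (SD, n = 4). The other members called in no comparison were *COPZ1* and *ARCN1* of the COPI coat, *ARFGAP2* and *TMED2*. *ARCN1*, the δ subunit, spread widely, at 81.6, 111, 40.3 and 37 CPM in bortezomib with nelfinavir. *ARFGAP2*, whose 3′ end overlaps *CSTPP1* on the opposite strand, lay between 15.8 ± 2.01 CPM in nelfinavir and 23.4 ± 5.42 CPM in bortezomib with nelfinavir.

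Other genes of the same transport step were taken from a list of 48 chosen for their role, of which 44 were tested. They include SNAREs, tethers, RAB and TRAPP proteins, further p24 and ERGIC proteins, and the transcription factors of the *CREB3* family that act on secretory genes. In bortezomib 23 were higher and 10 lower, where 27.6% and 25.8% of all genes were, and in nelfinavir 16 and 2 (10.4% and 8.84% of all genes). Nelfinavir added to bortezomib gave 14 higher and 7 lower with a median of 0.09 (15.6% and 13.4% of all genes), and ISRIB added gave 4 higher and 3 lower with a median of 0.12 (6.91% and 5.34% of all genes). The difference between this list and the members was not tested. *STX5*, the Golgi SNARE that pairs with *BET1* and *GOSR2*, rose by 1.08 ± 0.16 with bortezomib and 1.26 ± 0.16 with nelfinavir on the log2 scale (edgeR adjusted p = 1.10e-06 and 1.78e-07). *CREB3L2*, a factor known to drive COPII genes such as *SEC23A*, was at 119.8 ± 4.67 CPM in DMSO, 48.5 ± 6.79 CPM in bortezomib, 97.9 ± 10.1 CPM with nelfinavir added and 88.7 ± 8.47 CPM with ISRIB added (SD, n = 4). Its changes against bortezomib were 1.01 ± 0.11 and 0.87 ± 0.11 (edgeR adjusted p = 1.13e-08 and 6.56e-07). With nelfinavir alone *CREB3L2* was lower than in DMSO (-0.30 ± 0.10 log2, edgeR adjusted p = 0.029). *MIA3* (TANGO1), which helps load bulky cargo such as collagen at exit sites, rose by 0.88 ± 0.15 with nelfinavir added (edgeR adjusted p = 3.48e-05). The p24 gene *TMED4* was lower with nelfinavir added (-0.63 ± 0.11 log2, edgeR adjusted p = 5.21e-05). With ISRIB added, *KLHL12* and *YIF1A* were lower (-0.83 ± 0.18 and -0.79 ± 0.11 log2, edgeR adjusted p = 0.0018 and 3.15e-06). *ERGIC1*, a membrane protein of the intermediate compartment, fell from 68.3 ± 3.62 CPM in DMSO to 19.1 ± 2.85 CPM in bortezomib and 13.1 ± 2.13 CPM in bortezomib with nelfinavir (edgeR adjusted p = 6.14e-14 and 0.00516, the second against bortezomib).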

How the data were processed

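Per the labels and the study's methods, RNA from HepG2 cells was made into 3′ mRNA-Seq libraries (QuantSeq FWD) and sequenced in 1 pool. The authors trimmed reads with cutadapt 2.8, aligned them with STAR to hg19 (GRCh37) and deposited raw read counts per gene. Neither strand-specific counting nor molecular identifiers are mentioned, so counts may not be independent molecules, and p-values rest on the spread between replicates. All 24 columns were matched to samples by title.

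From the deposited counts, low genes were removed by filterByExpr (count of at least 5, total of at least 25), and the rest scaled by TMM and fitted with edgeR 4.0.16 (quasi-likelihood, 1 coefficient per group, all 24 libraries), with Benjamini-Hochberg adjustment over 12685 genes. A call is an adjusted p under 0.05. The SE is the log2 fold change divided by the square root of its F. The authors compared groups with DESeq2; DESeq2 1.42.0 is an alternative here, beside other scalings, no filter, other sample sets, a replicate block, each library left out and, chosen after seeing the data, another TMM reference library. The fit was tested on simulated data. Depth was 5154533 to 6943164 counts per library. The members, the related list and the motifs were chosen with earlier results of these data known. Values in every library are given for the members among the 3 called per direction with the largest change and no overlap. They are also given for members called in an interaction and for the smallest p with ISRIB alone. Not every group is printed for each of these members. Related genes are named where among the 2 largest per direction, though not all such genes are named. The p24 genes of the related list are all named. Overlaps at transcript ends (the last 500 bases, at least 50 shared) came from GENCODE on GRCh37, and promoter windows from RefSeq on GRCh38.p14. SEC22B is not reported here.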

Additional observations from a re-analysis of the deposited data

Results flagged for a closer look

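In 6 of the 240 sets of 4 libraries (40 genes in 6 groups), 1 library lay far from the other 3 for its group's range; chance sets apart about 1 group in 20. These were *SEC31A* in ISRIB (replicate 2 at 98.4 CPM, below the others), *ARFGAP2* in bortezomib (replicate 4 at 28.5 CPM) and in bortezomib with ISRIB (replicate 3 at 32.8 CPM), *KDELR3* in bortezomib with ISRIB (replicate 2 at 42.9 CPM), *LMAN1* in ISRIB (replicate 3 at 464 CPM) and *SURF4* in nelfinavir (replicate 1 at 349 CPM), all but the first above the others. *KDELR3* in bortezomib with ISRIB against bortezomib was called under every alternative, also without that replicate 2.

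The effect of a compound differed with and without bortezomib, by the interaction test in edgeR, for 7 members with nelfinavir (5 more positive and 2 more negative, against 9.74% and 10.0% of all genes) and 9 with ISRIB (all more positive, against 2.93% of all genes). For nelfinavir the members were thus called about as often as all genes. On the log2 scale, the interactions with nelfinavir were 1.332 in *TMED7*, 0.672 in *ARFGAP3*, 0.601 in *SEC31A*, 0.495 in *TMED5*, 0.393 in *SAR1A*, -0.402 in *KDELR2* and -1.248 in *BET1*. Those with ISRIB were 1.432 in *TMED7*, 1.150 in *KDELR3*, 1.044 in *ARFGAP3*, 1.032 in *SEC24D*, 0.863 in *SEC31A*, 0.686 in *GOLGB1*, 0.623 in *TMED5*, 0.516 in *COPB2* and 0.429 in *TMED10*. *COPB2* overlaps at its 3′ end with an opposite-strand gene.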

How the results depend on the processing

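Of the calls of single members, those held under every alternative were 10 of 22 for bortezomib, 15 of 20 for nelfinavir, 16 of 29 for nelfinavir added to bortezomib, 8 of 14 for ISRIB added, 5 of 14 for the direct comparison of co-treatments, 3 of 7 nelfinavir interactions and 8 of 9 ISRIB interactions. The signs that turned were those of *COPB2* (-0.273 with library totals alone, -0.028 with totals of nuclear genes), *ARF1* (-0.044) and *ARFGAP3* (-0.139, both with library totals alone), all in bortezomib against DMSO. With library totals alone, bortezomib gave 6 members higher and 21 lower, nelfinavir added to bortezomib 1 lower and ISRIB added 9 higher. With totals of nuclear genes, bortezomib gave 12 lower, nelfinavir added 16 higher and 2 lower, the direct comparison 4 higher and 6 lower, and the nelfinavir interaction 3 higher and 6 lower. Among all genes, library totals alone gave 1490 higher and 6266 lower in bortezomib, 1871 lower with nelfinavir added and 650 higher with ISRIB added. Totals of nuclear genes gave 4629 lower in bortezomib, and 1120 higher and 2902 lower with nelfinavir added. The direct comparison then gave 955 higher and 2580 lower, and the nelfinavir interaction 851 and 1833. These scalings move all genes of a comparison by 1 amount, so the counts shift with them; the cause of the other changes was not tested. Fitted on the groups compared only, ISRIB alone gave 2 lower, ISRIB added 9 higher, and the direct comparison 5 higher and 1 lower. With DESeq2 ISRIB alone gave 1 lower, and without the filter 1 lower there and 1 lower nelfinavir interaction. The median log2 fold change of the 40 members in bortezomib, 0.143, became 0.104 with RLE size factors, -0.354 with library totals, -0.110 with totals of nuclear genes and 0.069 without the filter; with nelfinavir added 0.412 became 0.239, in the direct comparison 0.131 became -0.033 and in the nelfinavir interaction 0.159 became 0.031 with totals of nuclear genes, and the direct one was 0.181 without the filter. DESeq2 was not used for these medians.

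TMM scales to 1 reference library. With all 24 libraries this was replicate 4 of bortezomib with nelfinavir. In 12 of the 24 fits with a library left out it was ISRIB replicate 3. These were all the fits that left out a library with bortezomib. Without DMSO replicate 2 the reference was bortezomib replicate 1. In those fits the values hold a change of reference beside the missing library. This covers every left-out library in the comparisons among groups with bortezomib. ISRIB replicate 3 as the reference with all libraries was an alternative chosen after seeing the data. With it the median in bortezomib was 0.094, with nelfinavir added 0.450 and in the direct comparison 0.171. The calls lost were *COPB2* and *ARFGAP3* in bortezomib and the nelfinavir interaction of *KDELR2*, which left 1 more negative interaction in place of 2.

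With each library left out in turn, that median ran from 0.076 (without bortezomib replicate 4) to 0.185 (without DMSO replicate 3) in bortezomib, from 0.429 to 0.471 with nelfinavir added, from 0.165 to 0.193 in the direct comparison and from 0.130 to 0.250 (without bortezomib replicate 4) in the nelfinavir interaction. Members called higher with ISRIB added ran from 9 (without bortezomib replicate 3) to 15. Those lower in the direct comparison ran from 1 (without replicate 3 of bortezomib with nelfinavir or replicate 4 of bortezomib with ISRIB) to 5 (without replicate 3 of bortezomib with ISRIB; 4 without replicate 2 of bortezomib with nelfinavir). Nelfinavir interactions ran from 4 to 8 more positive (8 without replicate 1 of bortezomib with nelfinavir) and from 0 (without DMSO replicate 1, nelfinavir replicate 2 or replicate 4 of the combination) to 3 more negative. No label ties a replicate number to a culture or day. Deviations from the group means correlated over 0.1 in 10 of 60 pairs with the same number and in 7 of 180 other pairs. The share was larger for the same number, so libraries with 1 number may share an effect that the main model leaves out. A replicate block gave 28 in place of 29 members higher with nelfinavir added and lost no call in the other comparisons. Low counts limit *COPG2* and *BET1*, with 3 and 11 counts in their lowest libraries.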
